A study of Homo sapiens with 24 samples.

Results

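The response to etoposide that remained without DAXX was described from 6 of the 24 RNA-seq libraries of the study, the 3 control and the 3 etoposide libraries of DAXX_KO cells, taken by their titles and column names. The study asked how loss of DAXX or ATRX alters the p53 response to DNA damage in cells with features of alternative lengthening of telomeres (ALT). The cells used here derive from U87-T, a human glioblastoma line that was given TERT, the catalytic subunit of telomerase. DAXX_KO is a single ALT-positive clone that was made with pairs of DAXX guides and puromycin selection, and the WT cells of the same series are U87-T with a control guide and the empty Cas9 vector, so an effect of DAXX loss and one of this clone cannot be told apart. WT and DAXX_KO each have 3 control libraries, untreated according to their labels, and 3 etoposide libraries. The dose and duration of etoposide for these libraries are not given in the sources used here. The study calls its replicates biological in general, without saying how those of these libraries were separated, so the p-values measure the spread between libraries.

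Etoposide is a topoisomerase II poison. It holds the enzyme on cut DNA, which leaves double-strand breaks, and cells with intact p53 then stabilise p53, transcribe its targets, and stop dividing. DAXX is a histone chaperone that works with ATRX to place the histone variant H3.3 in heterochromatin and at telomeres, and it is a component of PML nuclear bodies.

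The 6 libraries held 6928950 to 9505233 counts, so that 3 counts, the limit that a count of 0 allows, correspond to 0.311 to 0.396 CPM. CPM denotes counts scaled by the effective (TMM) library size. Intervals and floors account for counting error alone, as no molecular identifiers are described for these reads. Titles were followed where the genotype tag of these libraries gives ATRX instead. DAXX mRNA was at 6.25, 4.62 and 6.62 CPM in the controls and 7.31, 11.2 and 11.1 CPM with etoposide, against 33.9 ± 1.24 CPM (SD, n = 3) in WT controls and 21.7 ± 0.938 in WT with etoposide. DAXX was therefore low in every library labelled DAXX_KO, and it rose slightly with etoposide (log2 change 0.76, SE 0.17, adjusted p = 0.00103, edgeR quasi-likelihood test) where WT fell by 0.65, an interaction of 1.41 (adjusted p = 1.95e-04). These 3′ tags do not show which part of the gene was deleted or whether protein is made. Of 10 glioma and mesenchymal markers, 5 were tested, and VIM, CD44 and NES, which encode an intermediate filament, a hyaluronan receptor and a neural stem cell filament, were present, while GFAP, S100B, OLIG2, PTPRZ1 and FABP7 were at or under 3 counts in all 6 libraries. Of 16 markers of other cell types, 6 were at or under 3 counts in all 6 libraries, and the summed level of the list was 72.4 to 81.5 CPM in the controls and 55.1 to 64.2 CPM with etoposide. Of the 5 that were tested, the neuronal genes SYT1 and SNAP25 fell (log2 change −0.69 and −0.49) and 3 did not pass, so none was called higher. Without DAXX_KO etoposide replicate 3, 1 member of the list was called higher.

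Etoposide changed most of the genes tested in DAXX_KO cells. Of 15247 genes tested, 8316 (54.5%) passed a false discovery rate (FDR) of 0.05 in the edgeR quasi-likelihood test, of which 4079 were higher and 4237 lower. At least 2-fold, 1340 genes rose and 1306 fell, and at least 4-fold, 448 rose and 234 fell. The median log2 change of all genes was −0.00, and −0.11 when library totals replaced TMM scaling. Over the called genes, which were chosen on these same libraries, the median difference from the control mean was 0.66, 0.66 and 0.73 in the 3 etoposide libraries for higher genes (log2 of CPM plus 0.5) and −0.70, −0.66 and −0.76 for lower genes.

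Most of this response was shared with WT. WT cells had 4512 higher (29.6%) and 4662 lower (30.6%) genes in the same fit, and 6634 genes were called the same way in both, which is 79.8% of the calls in DAXX_KO and 72.3% of those in WT. The 2 responses share no library. Among the 3138 genes that rose in both, the median log2 change was 0.76 in DAXX_KO and 0.87 in WT, and among the 3496 that fell in both it was −0.76 and −0.91. The difference between the responses was tested as an interaction, which was called for 2160 genes, positive for 1277 and negative for 883. With library totals alone the split was 793 positive and 1359 negative, so the prevailing sign depended on the scaling. Of the genes that moved the same way in both, 899 had a smaller and 188 a larger change in DAXX_KO with the interaction called, and for 5547 no interaction was called. A further 138 genes were called in opposite directions, 84 of them higher in DAXX_KO and lower in WT. Another 333 genes were called in DAXX_KO but not in WT and had an interaction, 198 higher and 135 lower, and the reverse held for 302 genes higher and 294 lower in WT alone.

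**Figure D1:**
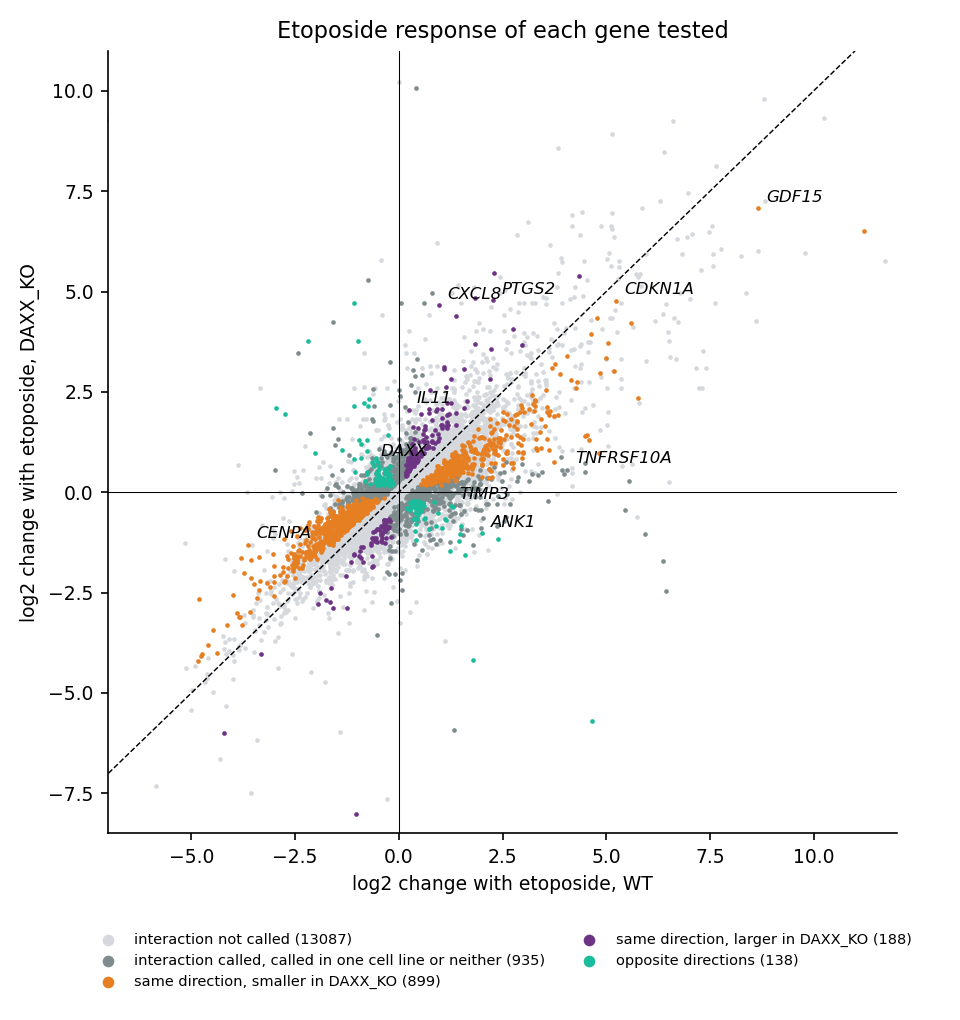
Log2 change with etoposide of each of the 15247 genes tested, in WT (horizontal axis) and in DAXX_KO (vertical axis), coloured by the interaction test at an FDR of 0.05, with the dashed line marking equal changes. Most genes lie along the dashed line, 899 genes are called in the same direction with a smaller change in DAXX_KO, and 138 genes are called in opposite directions.

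The genes through which p53 limits itself and stops the cell cycle rose in DAXX_KO, most of them less than in WT. Of 7 genes of p53 feedback and regulation, 6 rose, 0 fell and 1 did not pass, with a median log2 change of 1.26 (1.83 in WT), against 26.8% of all genes tested called higher, 27.8% called lower and a median of −0.00. Of 8 tested cell cycle arrest targets, 8 rose, with a median of 2.40 (3.47 in WT). CDKN1A, which encodes the cyclin-dependent kinase inhibitor p21, was at 214, 202 and 211 CPM in the controls and 5775, 5272 and 6075 CPM with etoposide. The controls and the treated libraries were far apart, with a log2 change of 4.77 (SE 0.07, adjusted p = 2.17e-20), and the level reached was 5707 ± 406 CPM (SD, n = 3), against 5621 ± 127 CPM in WT with etoposide from controls of 209 ± 6.10 and 149 ± 8.42 CPM. Differences in treated level between DAXX_KO and WT were not tested here or for the genes that follow. MDM2, the ubiquitin ligase that degrades p53, was at 56.0, 47.0 and 50.4 CPM in the controls and 566, 539.9 and 505 CPM with etoposide, below the 864 ± 3.24 CPM of WT with etoposide. BTG2, an antiproliferative cofactor of mRNA decay, was under 1 CPM in the 3 controls and at 12.7, 21.3 and 10.1 CPM with etoposide (log2 change 4.44). SESN2, a stress-induced regulator of mTORC1 signalling, had a log2 change of 2.42, GADD45A, a stress sensor, 3.10, TP53INP1, which promotes p53 activity and autophagy, 3.34, and TRIAP1, an inhibitor of apoptosis, 2.33. RCHY1, another ubiquitin ligase for p53, did not pass (log2 change −0.08, adjusted p = 0.746).

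The interaction was negative for 5 of the 7 feedback genes and 5 of the 8 arrest genes and positive for 0 of either, against 5.79% negative and 8.38% positive over all genes tested, and these counts were the same with library totals alone. It was −0.47 for CDKN1A (adjusted p = 8.56e-04), −0.66 for MDM2 (adjusted p = 4.62e-04), −1.66 for TP53INP1 (adjusted p = 2.63e-06), and −0.79 for SESN2. TRIAP1 (−0.17, adjusted p = 0.311), PLK2 (0.14) and BTG2 (−1.94, adjusted p = 0.0849) did not pass.

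Of 14 tested p53 targets of cell death, 12 rose, 0 fell and 2 did not pass, with a median of 1.30 (1.82 in WT). TP53I3, a quinone oxidoreductase, was at 6.87, 6.20 and 5.90 CPM in the controls and 87.7, 90.1 and 113 CPM with etoposide. BBC3, which encodes the BH3 protein PUMA, was at 26.6, 24.01 and 22.9 CPM in the controls and 179, 156 and 175 CPM with etoposide. All treated libraries lay above all controls for these genes, and the groups did not overlap, in either direction, for 58.3% of all genes tested. The interaction of BBC3 was −1.35 (adjusted p = 3.32e-06), while its level with etoposide was 169.9 ± 12.5 CPM (SD, n = 3) against 157 ± 3.64 CPM in WT, and that of the controls 24.5 ± 1.92 against 8.83 ± 1.34 CPM. The DAXX_KO controls were thus the higher ones. FAS, a death receptor, had a log2 change of 2.02 (interaction −1.23), and PMAIP1, which encodes NOXA, 1.35 (interaction −0.14, adjusted p = 0.495). TNFRSF10D, a decoy receptor for TRAIL, went the other way, with a larger change in DAXX_KO (3.58) than in WT (2.23) and an interaction of 1.35 (adjusted p = 7.31e-05). Its DAXX_KO libraries were at 4.25, 4.49 and 2.89 CPM in the controls and 46.5, 45.8 and 46.6 CPM with etoposide, and the WT means were 16.7 ± 2.08 and 78.1 ± 6.34 CPM, so its mean was below that of WT in either condition. AEN, a nuclease induced in apoptosis, and AIFM2, an oxidoreductase that protects from ferroptosis, also had positive interactions (0.59 and 0.66). TNFRSF10A, a receptor that signals death on binding TRAIL, was at 1.12, 1.32 and 1.93 CPM in the controls and 2.07, 1.86 and 2.58 CPM with etoposide and did not pass (log2 change 0.56, adjusted p = 0.172), against 4.06 in WT (interaction −3.49, adjusted p = 8.40e-05). In all, the interaction was positive for 3 and negative for 6 of the 14 genes, and positive for 2 and negative for 7 with library totals alone. APAF1, the core of the apoptosome, did not pass (0.26).

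All 9 tested p53 targets of repair and metabolism rose, with a median of 1.79 (2.51 in WT). DDB2, which recognises ultraviolet lesions, was at 63.6, 61.4 and 61.6 CPM in the controls and 411, 365 and 399 CPM with etoposide, an increase that was not called different from WT (interaction 0.12, adjusted p = 0.486). FDXR, a mitochondrial electron donor, was at 14.1, 11.5 and 11.4 CPM in the controls and 159.7, 138 and 195 CPM with etoposide, against 659 ± 41.7 CPM in WT with etoposide, with an interaction of −1.31 (adjusted p = 4.63e-05). PHLDA3, a repressor of AKT signalling, rose by 2.29 on the log2 scale with an interaction of −0.99, and XPC, a damage sensor of nucleotide excision repair, by 2.00 with an interaction of −0.51. RRM2B, TIGAR, DRAM1 and POLH, a polymerase that copies past lesions, rose by 1.32 to 1.63 and had no interaction called.

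**Figure D2:**
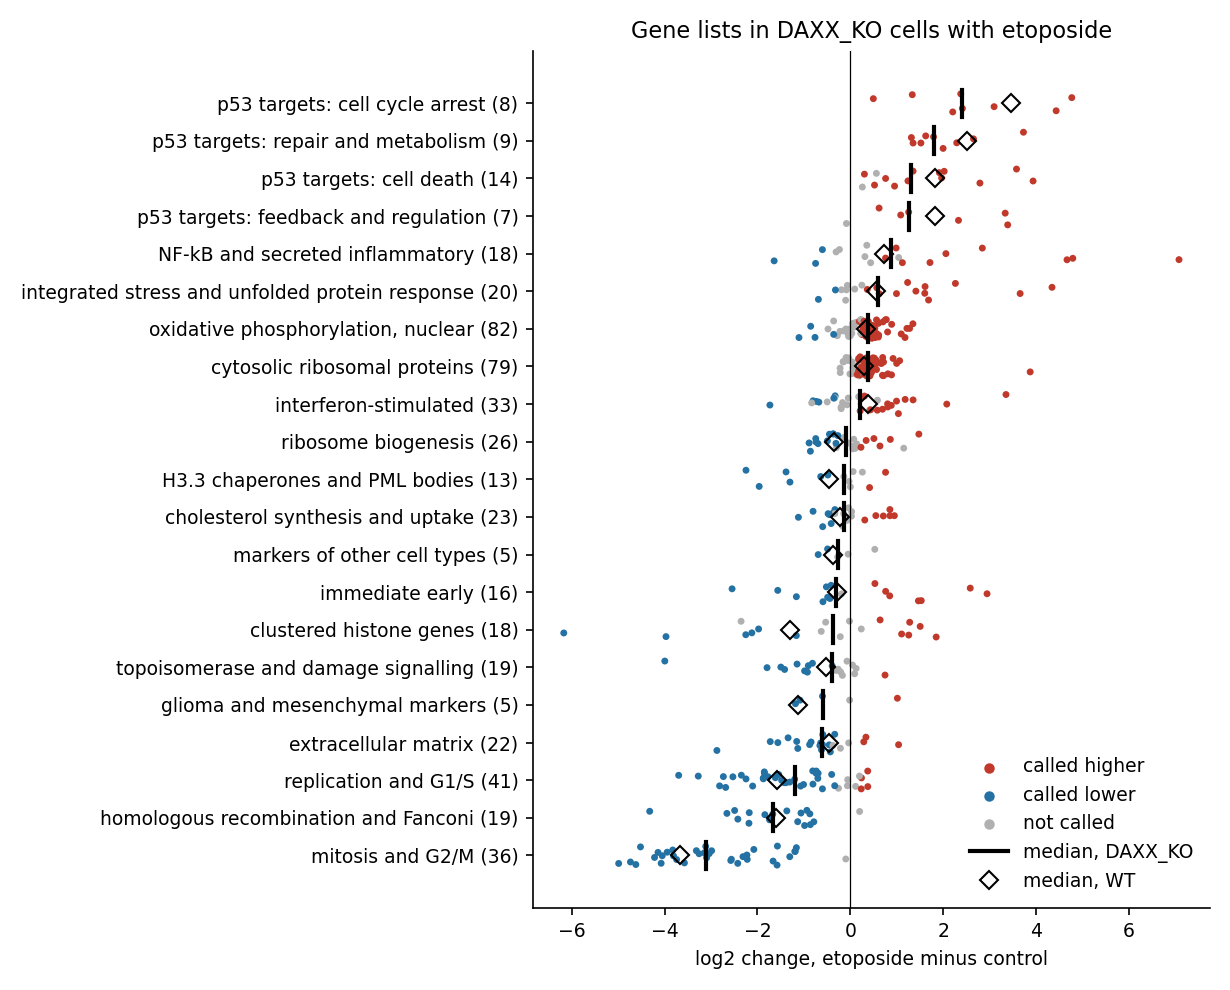
Log2 change with etoposide in DAXX_KO cells for each tested member of the gene lists (points, coloured by call at an FDR of 0.05; number tested in parentheses), with the DAXX_KO median (bar) and the WT median (diamond). The p53 lists lie to the right with medians of 1.26 to 2.40, the mitosis and G2/M list lies farthest to the left with a median of −3.10, and the WT median lies farther from 0 in each of these.

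Genes that drive mitosis had the lowest median of the lists examined. Of 36 genes of mitosis and G2/M, 35 fell, 0 rose and 1 did not pass, with a median log2 change of −3.10 (−3.67 in WT). In bulk libraries, fewer cells in a phase and less RNA per cell cannot be told apart. Many such genes carry a cell cycle genes homology region (CHR) or CCAAT boxes near the start of transcription. Promoters were read from RefSeq (GRCh38.p14, 250 bases before to 50 after the start), and the 4 genes of the list with the largest falls among those that held both motifs in the 110 bases upstream are shown. The windows are chr1:43358871-43358980 for CDC20 and chr16:23678779-23678888 for PLK1 (plus strand), chr15:69414239-69414348 for KIF23 (plus strand), and chr15:90994536-90994645 for PRC1 (minus strand). Each is written 5′ to 3′ on the strand of the gene, and capitals mark CHR (TTTGAA) and CCAAT (or ATTGG, the same box on the other strand).
CDC20: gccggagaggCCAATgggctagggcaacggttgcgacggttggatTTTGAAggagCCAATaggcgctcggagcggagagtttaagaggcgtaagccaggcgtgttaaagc
KIF23: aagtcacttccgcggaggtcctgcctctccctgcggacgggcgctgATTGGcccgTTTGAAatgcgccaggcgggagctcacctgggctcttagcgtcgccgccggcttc
PLK1: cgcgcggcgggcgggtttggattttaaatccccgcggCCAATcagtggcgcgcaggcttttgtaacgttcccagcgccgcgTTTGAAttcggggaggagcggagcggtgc
PRC1: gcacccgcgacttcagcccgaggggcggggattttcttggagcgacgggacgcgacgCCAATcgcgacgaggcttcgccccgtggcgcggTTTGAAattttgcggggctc
CDC20, which activates the anaphase-promoting complex, was at 163, 162 and 172 CPM in the controls and 8.89, 10.7 and 7.05 CPM with etoposide. PLK1, the kinase that directs entry into and passage through mitosis, was at 250.3, 245 and 246 CPM in the controls and 17.1, 13.5 and 13.7 CPM with etoposide. KIF23, a kinesin of the central spindle, and PRC1, which bundles its microtubules, had log2 changes of −4.14 and −3.94 (SE 0.17 and 0.10). For each of these 4 genes all etoposide libraries lay at least 10-fold below all controls.

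The largest falls of the list were those of CCNA2, which encodes cyclin A2, at 64.0, 57.8 and 57.4 CPM in the controls and 2.31, 1.76 and 1.57 CPM with etoposide (log2 change −4.99, SE 0.14, adjusted p = 5.22e-16), BUB1, a spindle checkpoint kinase (−4.73), and ASPM, a protein of spindle poles (−4.62). None of the 3 had an interaction called. PTTG1, which encodes securin, was the member that did not pass (−0.10, adjusted p = 0.171), and it passed with library totals alone (−0.20). The interaction was positive, so the fall was smaller in DAXX_KO, for 17 of the 36 genes and negative for 0, and positive for 11 and negative for 1 with library totals alone. It was largest for CENPA, the centromeric histone (−1.30 in DAXX_KO, −3.63 in WT, interaction 2.33), which held 12.5 ± 0.331 CPM (SD, n = 3) with etoposide against 2.58 ± 0.863 CPM in WT from controls of 31.0 ± 4.39 and 32.4 ± 2.93 CPM. UBE2C, the ubiquitin-conjugating enzyme of the anaphase-promoting complex, held 33.4 ± 6.12 CPM against 15.1 ± 1.47 CPM in WT (interaction 1.44). For CDC20 (interaction 0.63) both levels were lower in DAXX_KO, the treated one at 8.87 ± 1.81 against 12.3 ± 0.938 CPM and the control one at 166 ± 5.61 against 356 ± 8.72 CPM. The summed level of the whole list was likewise lower in DAXX_KO in both conditions. With etoposide it was 1418 to 1438 CPM in DAXX_KO and 1570 to 1633 CPM in WT. In the controls it was 5932 to 6237 CPM in DAXX_KO and 8592 to 8833 CPM in WT.

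Of 41 tested genes of replication and G1/S, 32 fell, 4 rose and 5 did not pass, with a median of −1.20 (−1.58 in WT). Here the motif of interest was the E2F site, searched as TTTCCCGC or TTTGGCGC on both strands, and the windows of the 3 genes with the largest falls among those that hold it upstream are shown with the site in capitals. They are chr1:23531234-23531343 for E2F2 and chr2:135876444-135876553 for MCM6 (both minus strand) and chr16:88803679-88803788 for CDT1 (plus strand, where GCGGGAAA is the site on the other strand).
E2F2: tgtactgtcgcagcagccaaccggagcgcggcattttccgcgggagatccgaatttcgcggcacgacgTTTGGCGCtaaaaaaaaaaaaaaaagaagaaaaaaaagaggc
MCM6: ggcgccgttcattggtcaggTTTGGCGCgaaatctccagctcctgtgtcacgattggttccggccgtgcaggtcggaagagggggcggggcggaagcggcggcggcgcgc
CDT1: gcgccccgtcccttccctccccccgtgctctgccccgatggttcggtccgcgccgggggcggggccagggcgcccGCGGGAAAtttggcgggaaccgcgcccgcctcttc
E2F2, an activator of S-phase genes, was at 23.99, 27.0 and 21.5 CPM in the controls and 3.41, 3.21 and 4.26 CPM with etoposide. MCM6, a subunit of the replicative helicase, had a log2 change of −2.10, and CDT1, which loads that helicase, −1.87. The largest falls were those of MCM10, a replication initiation factor (−3.70), CCNE2, cyclin E2 (−3.27), and GINS1, another helicase component (−2.81), and for each of these all treated libraries lay below all controls. Over all genes tested, treated and control libraries did not overlap, in either direction, for 58.3%. PCNA, the sliding clamp of replication, was at 78.2, 87.9 and 85.2 CPM in the controls and 46.2, 56.7 and 40.4 CPM with etoposide, a fall where WT had a log2 change of 0.24 (interaction −1.04, adjusted p = 7.68e-05). The 4 genes that rose were MCM5 (0.24), GINS3 (0.38), GINS4 (0.38) and E2F1 (0.24), named after their values were seen. With library totals alone 1 gene of the list rose, and without DAXX_KO control replicate 1, control replicate 2 or etoposide replicate 1, 2 genes did. The interaction was positive for 9 and negative for 2 genes of the list, and positive for 5 and negative for 5 with library totals alone.

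CHR and E2F motifs were unevenly spread between the lists, and CCAAT boxes were common in both. Of the 29 G2/M genes that fell and had a promoter in the table, 20 (69.0%) held a CHR in the 300 bases and 21 (72.4%) a CCAAT box, against 9.95% and 36.9% of the 10726 genes tested with a promoter and 15.4% and 35.7% of all 27305 promoters. Of the 30 replication genes, 13 (43.3%) held an E2F site, against 3.57% of the genes tested and 2.31% of all promoters, 1 held a CHR, and 17 (56.7%) a CCAAT box. Within the 110 bases upstream, CHR and CCAAT occurred together in 10 of the 29 G2/M genes and in 0.867% of genes tested, and the E2F site in 8 of the 30 replication genes and in 1.29%. The counts that follow are of genes with a promoter in the table and of motifs in the 300 bases. Beyond the lists, 66 of 152 such genes that fell at least 4-fold (43.4%) held a CHR, and 47 of the 115 of these (40.9%) that are in none of the mitosis, replication or recombination lists. The lists are not complete. Genes of cell division outside them, such as KIF18B and HJURP, also fell at least 4-fold, so the 115 may hold further genes of this kind. Among 273 genes with a promoter in the table that rose at least 4-fold, 25 (9.16%) held a CHR. A p53 half-site was in 3 of the 28 p53 targets that rose (10.7%), 3 of the 30 replication genes, 11 of the 115 genes outside the lists (9.57%) and 5.58% of genes tested. As 35 of the 36 G2/M genes fell, the motif shares of that set describe the list as it was written and not the response. A match is a description of the letters and not of binding.

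**Figure D3:**
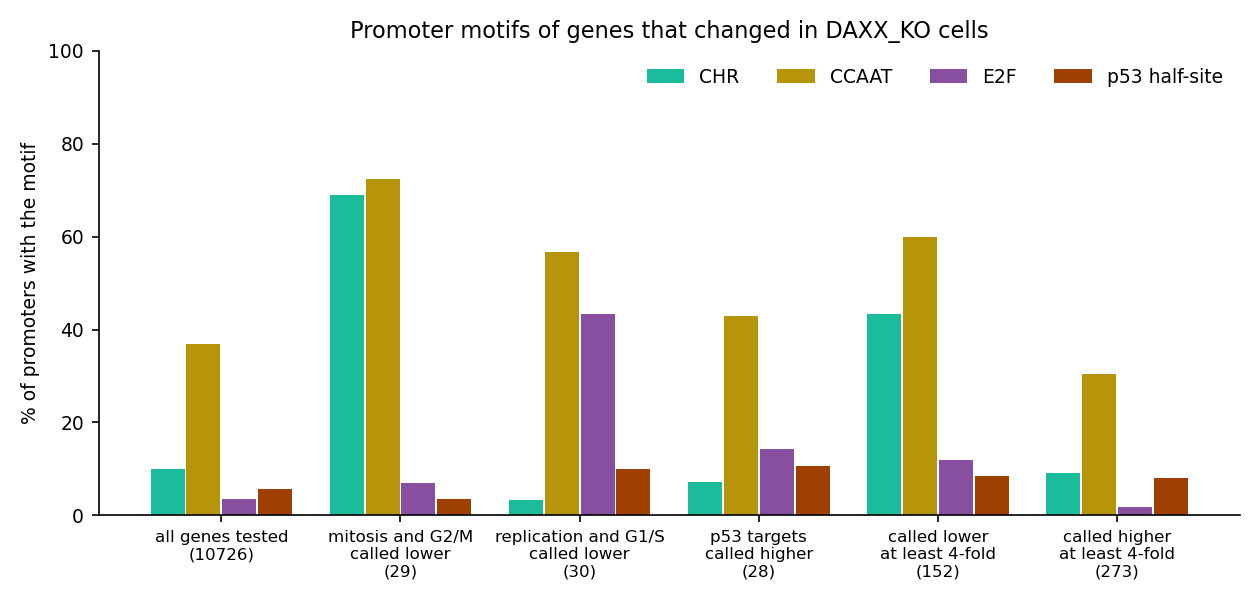
Percent of promoters (vertical axis, from 250 bases before to 50 after the start) that hold each motif on either strand, for all genes tested and for sets of genes that changed in DAXX_KO cells (number of promoters in parentheses). The CHR is held by 69.0% of the G2/M genes that fell and 9.95% of all genes tested, and the E2F site by 43.3% of the replication genes that fell and 3.57% of all genes tested.

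Genes that sense and repair breaks rarely rose. Of 19 genes of topoisomerases and damage signalling, 10 fell, 1 rose and 8 did not pass, with a median of −0.39 (−0.51 in WT). Among all genes tested, 27.8% fell and 26.8% rose. TOP2A, the topoisomerase II isoform of dividing cells and a target of etoposide, was at 1705, 1712 and 1647 CPM in the controls and 105, 102 and 110.3 CPM with etoposide. Its log2 change was −3.99 (SE 0.06, adjusted p = 9.03e-20), with an interaction of 0.38. TOP2B, the isoform that is also expressed outside the cycle, fell by 0.92, TDP1, which removes topoisomerase I adducts, by 1.79, and H2AX, the histone that is phosphorylated at breaks, by 1.49. ATM, CHEK2, TP53BP1, RAD50 and TOP1 were among the 8 that did not pass. With library totals alone 12 of these genes fell, TOP1 among them (−0.17, adjusted p = 0.00957, edgeR). Of 19 genes of homologous recombination and the Fanconi pathway, 18 fell, with a median of −1.67 (−1.61 in WT). RAD54L, a motor that aids strand invasion, was at 6.997, 7.92 and 6.02 CPM in the controls and 0.122, 0.621 and 0.224 CPM with etoposide. RMI2, a partner of the BLM helicase (−2.49), FANCD2 (−1.74) and BRCA1 (−1.13) also fell, and XRCC3 did not pass (0.20). The interaction was positive for 4 of the 19 and negative for 0.

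Histone genes and H3.3 factors were mixed. Of 33 clustered histone genes, 18 passed the filter on low counts, and of these 6 rose, 6 fell and 6 did not pass (median −0.37, −1.29 in WT). Their main transcripts lack poly(A) tails, which the libraries were primed on, so these values are of the polyadenylated part. The genes that fell included H4C3 at 482, 485 and 539 CPM in the controls and 135, 147 and 101 CPM with etoposide and H1-5 (−3.97). H2BC15 (1.85) and H2BC21 (1.51) rose. H2BC12 was at 60.7, 64.7 and 66.7 CPM in the controls and 64.3, 64.7 and 60.8 CPM with etoposide and did not pass (−0.02, adjusted p = 0.873), where WT fell from 153 ± 9.42 to 30.4 ± 1.89 CPM (SD, n = 3), an interaction of 2.32 (adjusted p = 2.59e-10). Near-identical copies within these clusters make single values uncertain. Of 13 H3.3 chaperones and PML body genes, 6 fell, 2 rose and 5 did not pass, with a median of −0.14. The shares over all genes tested were 27.8% lower and 26.8% higher. ASF1B, a chaperone of replicating cells, was at 114, 102 and 118 CPM in the controls and 25.2, 22.8 and 22.5 CPM with etoposide, and DEK, another H3.3 chaperone, fell by 1.96. ATRX was at 414, 380.0 and 364 CPM in the controls and 246, 257 and 242 CPM with etoposide (−0.64, against −0.41 in WT, interaction −0.23, adjusted p = 0.130). PML, the scaffold of the bodies and a p53 and interferon target, was at 56.7, 53.2 and 61.9 CPM in the controls and 58.2, 56.1 and 57.8 CPM with etoposide and did not pass (0.00), where WT had 0.59 (interaction −0.59, adjusted p = 9.92e-04). H3-3A and H3-3B, which encode H3.3, did not pass (−0.14 and −0.03), and with library totals alone each was called lower.

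**Figure D4:**
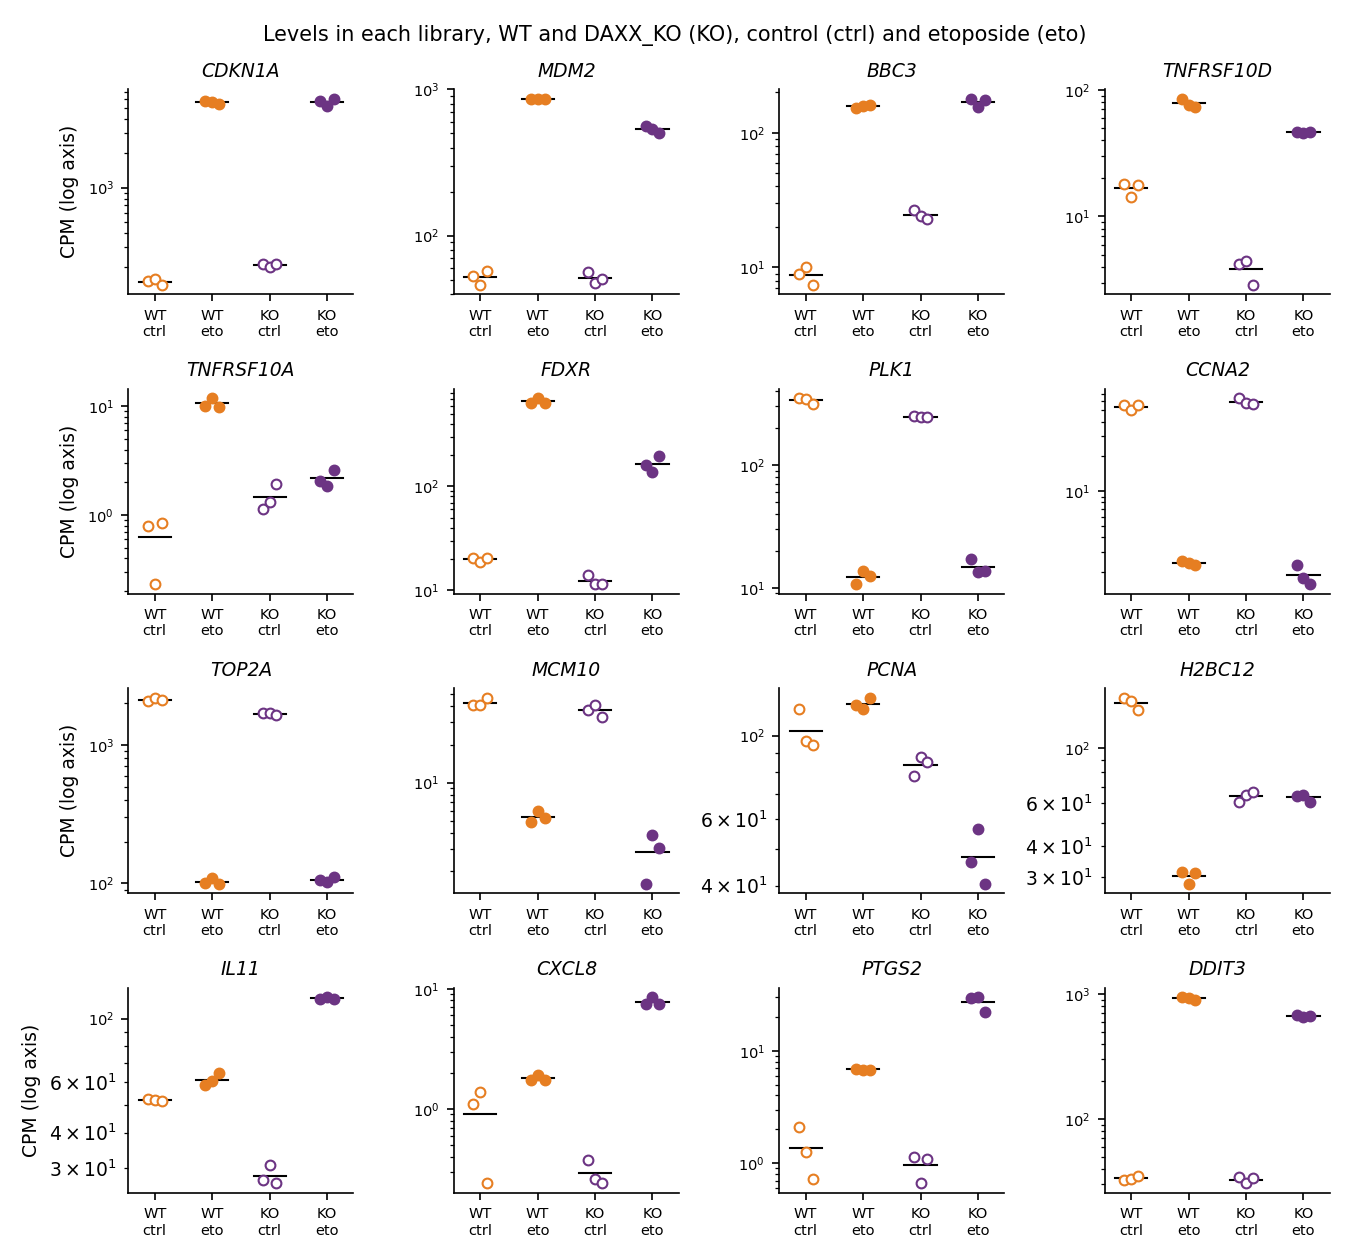
Level of 16 named genes in each library (CPM, log axis that differs between panels) in WT (orange) and DAXX_KO (purple) cells, control (open) and etoposide (filled), with the mean of the 3 libraries as a bar. TNFRSF10A rises from a mean of 0.621 to 10.6 CPM in WT and lies between 1.12 and 2.58 CPM in all DAXX_KO libraries, whereas IL11, CXCL8 and PTGS2 reach a higher level in DAXX_KO than in WT.

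Secreted factors held the largest increase of any list, and some rose more than in WT. Of 18 tested genes of NF-kB targets and secreted inflammatory factors, 9 rose, 3 fell and 6 did not pass, with a median of 0.87 (0.73 in WT). GDF15, a stress cytokine and p53 target, was at 46.0, 41.8 and 41.5 CPM in the controls and 5760.1, 5905 and 5853 CPM with etoposide (log2 change 7.08, SE 0.07, adjusted p = 4.55e-23), a smaller change than in WT (8.66, interaction −1.57). PTGS2, the prostaglandin synthase COX-2, was at 1.12, 0.660 and 1.08 CPM in the controls and 29.2, 29.9 and 22.1 CPM with etoposide. Its change of 4.79 exceeded that in WT (2.28, interaction 2.52, adjusted p = 6.25e-04). IL11, an IL-6 family cytokine, was at 27.2, 30.7 and 26.6 CPM in the controls and 117, 119 and 117 CPM with etoposide, where WT was at 52.0 ± 0.503 and 61.3 ± 2.89 CPM (SD, n = 3, interaction 1.83, adjusted p = 2.48e-09). CXCL8, a neutrophil chemokine, had 2 to 3 counts in each control and reached 7.43, 8.49 and 7.50 CPM, a pooled ratio of 26.8 (95% counting interval 12.8 to 67.4), with an interaction of 3.70. The interaction was positive for 4 and negative for 2 genes of the list, and positive for 4 and negative for 4 with library totals alone. NFKBIA, the inhibitor of NF-kB, fell (−0.60). CSF1, a macrophage growth factor, did not pass (−0.30), where WT had 1.46 (interaction −1.76), and its DAXX_KO controls were already at 62.3 ± 6.08 CPM against 6.47 ± 1.25 CPM. Of 33 interferon-stimulated genes, 14 rose, 6 fell and 13 did not pass, against 26.8% higher and 27.8% lower over all genes tested. Their median was 0.21 (0.38 in WT). IRF7, the regulator of interferon genes, was at 1.37, 0.792 and 1.56 CPM in the controls and 9.99, 17.5 and 11.2 CPM with etoposide, ISG20, an exonuclease, had a log2 change of 2.08, and IFI44 fell by 1.73. With DESeq2, or without DAXX_KO control replicate 2, 3 genes of that list fell.

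Genes of the stress responses tied to translation mostly rose. Of 20 genes of the integrated stress and unfolded protein response, 12 rose, 2 fell and 6 did not pass, with a median of 0.60 (0.56 in WT), and 5 fell with library totals alone. DDIT3, which encodes the transcription factor CHOP, was at 34.1, 30.5 and 33.7 CPM in the controls and 681, 655 and 666 CPM with etoposide (log2 change 4.35, interaction −0.44). TRIB3, a pseudokinase induced by CHOP, was at 9.25, 6.99 and 6.38 CPM in the controls and 102, 91.7 and 92.7 CPM with etoposide, with a larger change than in WT (interaction 0.70, adjusted p = 0.0125). PPP1R15A, which restores translation, had a log2 change of 2.26 (interaction 0.62), ATF4, the transcription factor of the pathway, 1.61 (interaction −0.00, adjusted p = 1.00), and HSPA5, the chaperone BiP, 1.69. HSP90B1, another chaperone of the endoplasmic reticulum, fell (−0.32), and MANF did not pass (0.10). Of 16 immediate early genes, 7 rose, 8 fell and 1 did not pass, against 26.8% higher and 27.8% lower over all genes tested. ATF3 was at 7.87, 6.99 and 6.14 CPM in the controls and 49.5, 59.2 and 53.1 CPM with etoposide (interaction −0.95), NR4A1, an orphan nuclear receptor, had a log2 change of 2.58, and MYC, which drives growth, fell from 6.25, 8.58 and 6.86 CPM to 0.853, 2.07 and 0.672 CPM.

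Most mRNAs of cytosolic ribosomal proteins rose by a small amount. Of 79 genes with such symbols, 61 rose, 0 fell and 18 did not pass, with a median of 0.38 (0.30 in WT), and with library totals alone 49 rose, 1 fell and the median was 0.27. RPL18, of the large subunit, was at 335, 304 and 433 CPM in the controls and 709, 698 and 833 CPM with etoposide (1.06). RPL23A (−0.15) and RPL30 (−0.15) did not pass, and both passed as lower without DAXX_KO etoposide replicate 2, where 4 genes of the list fell. RPL28 is uncertain, since reads of ribosomal genes can be split among near-identical copies. It was at 95.3, 163 and 388 CPM in the controls and 398, 436 and 459.9 CPM with etoposide (1.00, adjusted p = 0.0261), and it did not pass with DESeq2 (adjusted p = 0.0976) or without DAXX_KO control replicate 1 (adjusted p = 0.127), control replicate 2 (adjusted p = 0.109) or etoposide replicate 3 (adjusted p = 0.0545). The 82 tested genes with symbols of nuclear oxidative phosphorylation subunits, with the pseudogenes ATP5F1EP2 and COX6A1P2 included, gave similar counts, with 58 higher, 4 lower, 20 not passed and a median of 0.38 (0.35 in WT), among them NDUFA13 (1.28) and NDUFA11 (1.22) of complex I. The count of lower genes there was 8 with library totals alone and 9 without DAXX_KO etoposide replicate 2. ATP5F1D, an ATP synthase subunit, was at 12.6, 15.3 and 23.7 CPM in the controls and 35.8, 48.5 and 47.6 CPM with etoposide (interaction 1.05, adjusted p = 0.00763). Genes of the mitochondrial genome were not analysed here. By contrast, of 26 ribosome biogenesis genes 11 fell, 6 rose and 9 did not pass (median −0.09, −0.35 in WT). NCL, the nucleolar protein nucleolin, fell by 0.69, NPM1, another nucleolar chaperone, by 0.27, and RRP12, a processing factor, rose (1.48). The interaction was positive for 7 of the 26, among them DKC1, the pseudouridine synthase that also binds telomerase RNA (−0.74 in DAXX_KO, −1.36 in WT).

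Extracellular matrix genes mostly fell. Of 22 tested, 16 fell, 3 rose and 3 did not pass, against 27.8% lower and 26.8% higher over all genes tested. The median was −0.61 (−0.46 in WT). CCN1, a matricellular protein, was at 35.9, 40.0 and 39.7 CPM in the controls and 4.99, 7.25 and 3.36 CPM with etoposide, a larger fall than in WT (−1.24, interaction −1.63, adjusted p = 5.41e-05). COL1A2, a chain of type I collagen, fell by 1.13 (interaction −0.83) and CCN2, a related protein, by 1.72. THBS2, a thrombospondin (1.04), COL6A1 (0.29) and COL6A2 (0.34) rose. TIMP3, an inhibitor of matrix proteases, was at 49.98, 57.8 and 59.3 CPM in the controls and 48.5, 39.0 and 45.2 CPM with etoposide (−0.33, adjusted p = 0.00361), where WT rose from 68.5 ± 1.90 to 164 ± 6.69 CPM (SD, n = 3, interaction −1.60, adjusted p = 7.38e-08). Of the 5 glioma and mesenchymal markers tested, 1 rose, 3 fell and 1 did not pass. VIM was at 3547, 3854 and 3585 CPM in the controls and 1525, 2129.5 and 1193 CPM with etoposide (−1.18), and CHI3L1, a secreted glycoprotein, had a log2 change of 1.02 (adjusted p = 0.00301). Genes of cholesterol synthesis and uptake had no common direction, with 9 of 23 lower, 6 higher and 8 not passed (median −0.14). The shares over all genes tested were 27.8% lower and 26.8% higher. INSIG1, a brake on the pathway, fell (−1.12), while LSS (0.86) and HSD17B7 (0.95), enzymes of sterol synthesis, rose.

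Among genes of at least 5 CPM, 9 of the 10 largest increases were of genes with at most 3 counts in any DAXX_KO control, GDF15 being the exception. LCE1B, a cornified envelope gene of skin, had 0, 0 and 1 counts in the controls and 295, 305 and 362 with etoposide, a pooled ratio of 858 (95% counting interval 154 to 33917). ABCA12, a lipid transporter, had 0 counts in each control and 120, 97 and 130 with etoposide, so it was at least 34.7-fold higher, against the floor of 3 counts per library. FGR, a kinase of the Src family, had 1, 0 and 0 counts in the controls and 74, 85 and 109 with etoposide (ratio 239, interval 42.5 to 9474), and NECTIN4, an adhesion molecule, 0, 0 and 2 against 106, 129 and 90 (ratio 145, interval 39.8 to 1202). These 4 genes were also called higher in WT, as were GDF15, CFAP144, PLIN4 and UNC5B-AS1. The other two were RAB43 and the antisense gene RP11-312O7.2, each at 0 in the DAXX_KO controls and not called in WT, where RP11-312O7.2 had 0 counts in all 6 libraries and RAB43 36, 0 and 0 in the controls and 41, 0 and 0 with etoposide. RP11-312O7.2 was at least 46.7-fold higher and RAB43 at least 42.5-fold. Both are uncertain, RAB43 because it overlaps other genes between which reads were divided by estimation, and the antisense gene, like UNC5B-AS1, because strand-specific counting is not stated. Over all genes, 16 were at 0 in the 3 controls and at 10 counts or more in each etoposide library, 14 of which were called higher in WT, and 3 showed the reverse.

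The 10 largest decreases were those of RP11-439A17.7, an antisense gene and therefore uncertain, and of 8 genes of cell division and LMNB1. KIF18B, a kinesin that shortens spindle microtubules, was at 38.6, 33.4 and 37.3 CPM in the controls and 0.609, 0.725 and 0.336 CPM with etoposide (−5.99), a larger fall than in WT (−4.20, interaction −1.79, adjusted p = 0.00133). LMNB1, which encodes lamin B1 of the nuclear lamina, was at 56.5, 55.7 and 67.3 CPM in the controls and 1.71, 1.24 and 1.23 CPM with etoposide (−5.42), and HJURP, which loads CENPA at centromeres, at 119, 113 and 106 CPM in the controls and 3.53, 4.14 and 3.36 CPM with etoposide (−4.92). ERCC6L, a helicase of anaphase bridges (−5.32), KIFC1, a spindle kinesin (−4.66), ANLN, anillin of the cleavage furrow (−4.52), and CCNA2, BUB1 and ASPM completed them, and of these 9 genes only KIF18B had an interaction called. RP11-439A17.7 had 188, 152 and 213 counts in the controls and 2, 0 and 0 with etoposide, a pooled ratio of 310 (95% counting interval 85.4 to 2567) against a log2 change of −1.04 in WT.

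Among genes of at least 5 CPM over the 12 libraries that were called in DAXX_KO and for the interaction, those ranked highest included genes that rose less in DAXX_KO and genes that moved the other way. Among negative interactions, AQP3, a water channel, was at 2.62, 2.64 and 2.89 CPM in the controls and 5.12, 7.66 and 3.25 CPM with etoposide, against 22.3 ± 2.89 CPM (SD, n = 3) in WT with etoposide (interaction −3.84, adjusted p = 1.61e-05), and its rise did not pass without DAXX_KO etoposide replicate 2 (log2 change 0.61, adjusted p = 0.0810). DNAI3, an axonemal dynein subunit, rose less (1.41 against 4.48), and UNC5B-AS1 was at 25.6, 23.1 and 23.9 CPM against 35.2 ± 0.821 CPM in WT, with 2 counts in each DAXX_KO control and 0 in each WT control, so the size of its interaction is not determined. ANK1, ankyrin of the membrane skeleton, was at 32.0, 33.5 and 28.8 CPM in the controls and 12.7, 15.3 and 18.6 CPM with etoposide (−1.01), where WT rose (2.02, interaction −3.03, adjusted p = 5.80e-07). Among positive interactions, DPH1, of diphthamide synthesis, was at 8.25, 5.28 and 5.30 CPM in the controls and 14.4, 10.05 and 12.8 CPM with etoposide (0.97), where WT fell (−2.02, interaction 3.00, adjusted p = 6.90e-06). CA10, CLEC2B and LPAR1 met the limit of 5 CPM through the WT libraries. LPAR1, for example, was at 30.5 ± 3.38 CPM in WT controls and 0.125 ± 0.216 CPM in DAXX_KO controls. MANCR, DRD1 and RASD2 were instead named as opposite responses, without a limit on level. MANCR, CA10 and DRD1 had 0 counts in every DAXX_KO control and at most 5 in any etoposide library, and CLEC2B, RASD2 and LPAR1 at most 3 in any control, so no fold is given and the values of these genes rest on few reads. Of the 138 genes called in opposite directions, 115 had a mean of at least 5 CPM over the 6 DAXX_KO libraries.

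Some of those 115 were named after their values were seen. PHLDA2, an imprinted growth regulator, was at 155, 164 and 196 CPM in the controls and 496, 408 and 475 CPM with etoposide, with a log2 change of 1.42 against −0.27 in WT. FAM107B also rose in DAXX_KO and fell in WT (1.31 against −0.76), from 8.08 ± 1.60 CPM in DAXX_KO controls and 63.0 ± 1.93 CPM in WT controls. KCNE4, a potassium channel subunit, was at 9.37, 12.9 and 11.3 CPM in the controls and 4.14, 3.94 and 4.14 CPM with etoposide (−1.46 against 1.24), and F2RL2, a thrombin receptor (−1.22 against 1.46), and IRX5, a homeobox factor (−1.20 against 0.42), also fell in DAXX_KO and rose in WT. For each of these 5 genes the treated and control libraries of DAXX_KO did not overlap, as was so for 58.3% of all genes tested.

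The study names GADD45A, TNFRSF10A, TP53INP1, TIMP3 and USP2 for a reduced response, chosen on these samples, so their direction is not independent evidence. USP2, a deubiquitinase, was at 2.37, 2.90 and 2.53 CPM in the controls and 2.31, 4.04 and 3.14 CPM with etoposide (0.29, adjusted p = 0.466; interaction −2.20). By RT-qPCR, another assay, the study reports GADD45A, CYP4F3 and PARD6G as affected in DAXX_KO and CDKN1A as not significantly affected. The interaction of CDKN1A was called here, at −0.47, but it compares responses, whereas the RT-qPCR was shown relative to control cells. The CDKN1A level with etoposide was 5707 ± 406 CPM in DAXX_KO and 5621 ± 127 CPM in WT, a difference that was not tested. Controls were at 209 ± 6.10 CPM in DAXX_KO and 149 ± 8.42 CPM in WT. PARD6G, a polarity protein, did not pass for the response (−0.12) or the interaction (−0.27, adjusted p = 0.191). CYP4F3, a fatty acid hydroxylase, rose from 0.625, 0.264 and 0.241 CPM to 1.22, 2.59 and 2.02 CPM, less than in WT (interaction −3.43, adjusted p = 0.0139), and its interaction did not pass without DAXX_KO control replicate 1 (−2.87, adjusted p = 0.127). ZMAT3, an RNA-binding p53 target, rose in every etoposide library (137, 126 and 125 CPM in the controls and 305, 296 and 325 CPM with etoposide) with an interaction of −0.40.

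The response differed by gene length. When the 14827 genes with a known span were cut in 5 classes of nearly equal number, with median spans of 3.02, 12.8, 28.9, 59.4 and 159 kb, the median log2 change in DAXX_KO was 0.19, 0.20, 0.05, −0.10 and −0.35. In the shortest class 33.0% of genes rose and 14.1% fell, and in the longest 11.7% rose and 47.8% fell. The longest minus the shortest class was −0.50, −0.47 and −0.56 in the 3 etoposide libraries and 0.02, 0.01 and −0.04 in the 3 controls (log2 of CPM plus 0.5, against the control mean). WT gave a difference of −0.60 where DAXX_KO gave −0.54, and the median interaction of the 5 classes ranged from −0.02 to 0.03. Genes of different length also differ in level and type. Among protein-coding genes the difference was −0.66, and −0.48, −0.62 and −0.78 in those of low, middle and high expression. Chromosome 19, whose genes are short (median span 15.7 kb, 992 genes), had a median of 0.27, and chromosome 13, whose genes are long (50.9 kb, 249 genes), −0.30. These were the highest and the lowest medians of the chromosomes. Others lay nearer to no change, such as chromosome 17 (18.2 kb) at 0.08 and chromosome 2 (41.6 kb) at −0.09. Whether span accounts for these medians was not tested.

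**Figure D5:**
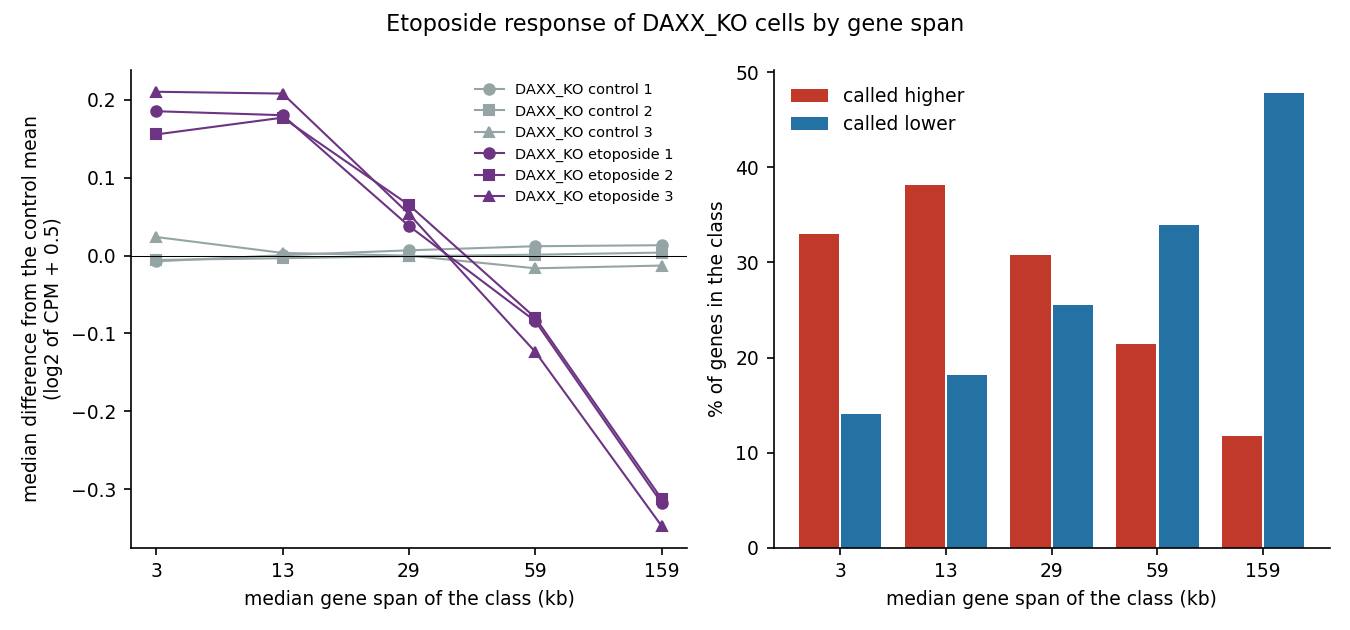
Left, median difference of each DAXX_KO library from the control mean (log2 of CPM plus 0.5) in 5 classes of gene span, labelled by their median span in kb. Right, percent of genes of each class called higher and lower with etoposide. All 3 etoposide libraries lie lower in the longest class than in the shortest, and the share of genes called lower goes from 14.1% to 47.8%.

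Of 1676 long noncoding RNAs tested, 404 rose (24.1%) and 182 fell (10.9%), against 26.8% and 27.8% of all genes tested, and their median was 0.17 (−0.03 for protein-coding genes). The WT median was 0.37, and 24 had a positive and 96 a negative interaction, against 8.38% and 5.79% of all genes tested. The negative share was thus close to that of all genes, and the positive share was below it. After thinning every library to 6928950 counts, 3397 to 3546 long noncoding RNAs had a count in the controls and 3866 to 4028 with etoposide. All genes together gave 19479 to 19867 and 21134 to 21657, so the treated libraries held more detected genes at equal depth. Of the 5 most abundant transcripts, BCYRN1, a primate RNA that regulates translation, took 4.54 to 5.83% of the counts in the controls and 8.44 to 10.1% with etoposide. It has many genomic copies and an A-rich stretch on which these libraries can prime. FTH1, ferritin heavy chain (0.65, interaction −0.27), CD63, a lysosomal tetraspanin (0.46), and GAPDH, a glycolytic enzyme (0.23), rose, GAPDH passing with TMM scaling and not with library totals (0.13, adjusted p = 0.0962). MT2A, a metallothionein that binds zinc, was at 8208, 8512 and 8464 CPM in the controls and 3128, 3399.8 and 3417 CPM with etoposide (−1.34), a smaller fall than in WT (−2.08, interaction 0.73, adjusted p = 5.02e-06).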

How the data were processed

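RNA was measured by QuantSeq, which reads the 3′ end of mRNA. The authors mapped 75-base single reads to hg19 using STAR, and RSEM gave a value for every Ensembl gene. What they deposited are estimated counts in whole numbers for 57736 genes, without normalization. RSEM shares reads among overlapping genes and near-identical copies, so single values of such genes are uncertain. Names and spans came from GENCODE release 44 on GRCh build 37, which matched 55501 genes holding 98.8% of the counts, and promoters from RefSeq (GRCh38.p14).

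The 12 libraries of the DAXX series, 3 in each of 4 groups, were fitted in 1 edgeR 4.0.16 quasi-likelihood model in R 4.3.3 (TMM factors 0.939 to 1.10, genes kept by filterByExpr at minimum counts of 10 and 15 in total, common biological coefficient of variation 0.0825). Benjamini-Hochberg adjustment covered all 15247 genes tested, and called means FDR below 0.05. The interaction is the DAXX_KO response minus the WT response. Replicates differed by more than counting error (chi-square per degree of freedom 2.32 to 5.63 in the controls and 4.57 to 10.8 with etoposide). On simulated data the model recovered 76 of 96 genes changed by 1 on the log2 scale and 90 of 98 changed by 2, with 0 of wrong sign and 10 false calls over 14774 genes. Few genes were changed there, equally up and down, with counts drawn from the fitted dispersions. The simulation therefore did not test the scaling where most genes change.

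The groups, gene lists and named genes were chosen with earlier results of these data known. Lists were written from general knowledge and described by counts and medians, with no set test. Named were DAXX and ATRX, the 10 largest increases and decreases among called, non-overlapping genes of at least 5 CPM, in each list the 3 largest called changes and up to 2 other members of high level, the 5 most positive and most negative interactions among genes called in DAXX_KO and for the interaction with a mean of at least 5 CPM over the 12 libraries, the 5 largest opposite responses without a limit on level, the 5 most abundant transcripts, and genes in the study's text. Some genes that this rule covers are not reported here, and they remain in the counts and medians. Other list members were named after their values were seen, to show a role or a difference from WT. Alternatives were DESeq2 1.42.0, RLE factors, library totals, other filters, other sets of libraries, a replicate block and leaving out each library. Added after seeing the data were leaving out BCYRN1, the alternatives for gene length other than transcript length, and those for interactions. Figures were drawn with matplotlib 3.10.9.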

Additional observations from a re-analysis of the deposited data

Results flagged for a closer look

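The genes here are those named by rule and reported whose response to etoposide differed between DAXX_KO and WT in the interaction test (edgeR, FDR 0.05), given as the log2 change in DAXX_KO minus that in WT. Among p53 targets it was −0.47 for CDKN1A, −0.66 for MDM2, −1.66 for TP53INP1, −0.40 for ZMAT3, −0.61 for GADD45A, −1.35 for BBC3, −0.69 for TP53I3, −3.49 for TNFRSF10A, −1.31 for FDXR and −0.99 for PHLDA3. TNFRSF10D, at 1.35, was the p53 target named by rule with a positive value.

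Other genes with a smaller rise, a larger fall or a reversal in DAXX_KO were GDF15 (−1.57), ATF3 (−0.95), DDIT3 (−0.44), JUND (−0.38), FTH1 (−0.27), USP2 (−2.20), CYP4F3 (−3.43), TIMP3 (−1.60), CCN1 (−1.63), ANK1 (−3.03), AQP3 (−3.84), DNAI3 (−3.06), UNC5B-AS1 (−4.71), KIF18B (−1.79) and RP11-439A17.7 (−6.97).

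Positive values among genes of stress, growth and structure were those of PTGS2 (2.52), CXCL8 (3.70), TRIB3 (0.70), PPP1R15A (0.62), MANF (0.63), DPH1 (3.00), ATP5F1D (1.05), WDR43 (0.59), INSIG1 (0.52), LSS (0.38), COL6A1 (0.51), CD44 (0.40), CD63 (0.28) and MT2A (0.73). For genes of chromatin and replication they were those of DAXX (1.41), TOP2A (0.38), H2AX (0.83), H3-3A (0.32) and MCM7 (0.31). The values of CA10 (5.97), DRD1 (4.74), MANCR (5.79), LPAR1 (4.69), CLEC2B (3.05) and RASD2 (3.07) rest on DAXX_KO libraries of few counts, and that of RAB43 (9.68) on a gene of uncertain counts, whose interaction did not pass without WT control replicate 1 (adjusted p = 1.00), without DAXX_KO control replicate 2 (adjusted p = 0.0536) or with DESeq2 (adjusted p = 0.264). That of UNC5B-AS1 rests on WT controls at 0 counts and DAXX_KO controls at 2 each, so its size is not determined.

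Some of these values were near the threshold. LSS, whose adjusted p was just under 0.05, did not pass with DESeq2 (0.0683), library totals (0.191), no filter on low counts (0.0983), the replicate block (0.0769) or in 9 of the 12 fits without a single library. MCM7 did not pass with library totals (0.160) or in 6 of the 12 fits (0.0539 to 0.0692), and JUND not in 7 (0.0505 to 0.120). H3-3A did not pass with library totals (0.125) or without WT control replicate 1 (0.0562), CD63 with library totals (0.0870), H2AX without WT etoposide replicate 2 (0.0621), TRIB3 without WT control replicate 1 (0.0567), and TP53I3 and CYP4F3 without DAXX_KO control replicate 1 (0.0528 and 0.127). All are adjusted p-values from edgeR unless DESeq2 is named.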

How the results depend on the processing

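Where named genes were compared, none that was called in the reported or the alternative fit reversed its change or interaction. Named genes were not compared in the fits of all 24 libraries or of at least 10 counts in every library. Signs of genes called in neither fit were not compared. The counts of higher genes, lower genes, interactions and opposite genes stayed within 1.5 times of the reported ones. Higher genes ranged from 3391 (library totals) to 4363 (RLE factors) and lower genes from 3753 (at least 10 counts in every library) to 5021 (library totals), and DESeq2 gave 4073 and 3773. Leaving out single DAXX_KO libraries gave 3704 to 3966 higher and 3911 to 4286 lower genes, and single WT libraries 4056 to 4125 and 4196 to 4238. Leaving out each of the 12 libraries gave 1655 to 2274 interactions and 96 to 166 opposite genes. Same-numbered control and etoposide libraries of DAXX_KO showed no large shared deviation (correlations of −0.0455, 0.0487 and 0.00303), which cannot show whether they were handled together. The replicate block gave 3973 higher genes, 4189 lower genes, 1882 interactions and 125 opposite genes. Of the changes in DAXX_KO of the 136 named genes, the block ended 1 call, that of RASD2 (adjusted p = 0.0635), DESeq2 ended 3 and library totals 5. Of the 53 interactions of named genes, library totals ended 5, DESeq2 2 of the 51 it tested and the block 4 (adjusted p = 0.0587 for DRD1, 0.0612 for JUND, 0.0769 for LSS and 0.0640 for RASD2). At least 1 fit without a single library ended the call of 11 of the 53 interactions (DRD1 in 10 of the 12 fits, RASD2 and LSS in 9, JUND in 7, MCM7 in 6, RAB43 in 2, and CYP4F3, H2AX, H3-3A, TP53I3 and TRIB3 in 1 each) and of 8 of the changes in DAXX_KO, among them those of DRD1, LPAR1, RASD2, CA10, RPL28, WDR43 and AQP3. The difference between the longest and the shortest genes moved by more than the replicate spread from −0.54 to −0.43 by transcript length, −0.66 in protein-coding genes, and −0.48, −0.62 and −0.78 in those of low, middle and high expression, and was −0.57 to −0.52 without single DAXX_KO libraries. Depth limits genes near 3 counts, such as CA10 and DRD1.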
